A study of Mus musculus with 8 samples.

Results

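The islands described here are the 922 CpG island regions, of 13444 autosomal regions on the array, that bound an antibody against methylated cytosine most strongly on nearly every array of the series. A region is a run of 3 or more probes whose starts lie up to 500 bp apart on chromosomes 1 to 19. A region was kept when the mean log2 ratio of bound over input DNA of its probes ranked in the top 10% of regions on the wild-type ES array, on all 4 liver and spleen arrays and on at least 2 of the other 3 ES arrays. These 922 regions are called members here, and 604 of them ranked in the top 10% on all 8 arrays. Members were chosen by their log ratios on these arrays, so their high levels are given as a description without a test.

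The series asked about a demethylation pathway of CpG islands in mouse embryonic stem (ES) cells. It used mDIP, in which sheared genomic DNA (fragments of 300 to 1000 bp) is denatured and precipitated with an antibody against 5-methylcytidine. The ES arrays carried DNA of aid-/- cells (without activation-induced deaminase), of mbd4-/- cells (without a thymine glycosylase that binds methylated CpG), of cells with a knockdown of Gadd45a (a stress-response gene with a proposed part in demethylation) and of wild-type cells. The tissue arrays carried DNA of liver and of spleen of aid-/- and of mbd4-/- C57BL6/J mice, all 6 months old, so all 4 tissue samples were mutant and no wild-type tissue was analysed here. Each of the 8 groups is 1 array, each value has no replicate, and the SD over the probes of a region is the only error measured within a group. Bound DNA was labelled with Cy5 and input with Cy3 on all 8 arrays, so a dye bias cannot be told apart from binding. A log ratio ranks a region against the other regions of its array and is no percentage of methylated molecules, and in bulk DNA it does not tell fewer methylated cells from less methylation per cell.

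CpG islands are stretches rich in the dinucleotide CpG. Most of them lie at promoters and stay unmethylated in nearly all cells, which keeps the promoter open to transcription. Known exceptions are islands inside genes, which are often methylated, and the promoters of germline genes, which gain methylation around implantation and stay silent in somatic cells. Imprinted control regions are methylated on the copy from a single parent.

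Each sequence in this paragraph is the probe nearest to the centre of 10 members, with every CpG in capitals and positions in mouse build mm9 as the deposited files give them. The first 8 are the named members whose lowest rank over the 8 arrays was highest. Tex12 and Cacna1i hold the highest and the lowest CpG density among named members. Letters run as the array design prints them, and the design names no strand.
Trpc7, chr13:56989171-56989218: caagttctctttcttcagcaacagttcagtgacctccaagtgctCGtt
Map3k4, chr17:12464717-12464771: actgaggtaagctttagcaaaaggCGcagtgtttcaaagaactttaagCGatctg
Fat1, chr8:46122480-46122524: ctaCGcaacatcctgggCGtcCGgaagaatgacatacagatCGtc
Ptpn21, chr12:99927465-99927509: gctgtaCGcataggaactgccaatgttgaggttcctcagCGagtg
App, chr16:84963080-84963127: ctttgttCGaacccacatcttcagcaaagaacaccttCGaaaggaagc
Stab2, chr10:86371693-86371737: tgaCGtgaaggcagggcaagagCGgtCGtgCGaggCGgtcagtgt
Kank1, chr19:25484679-25484723: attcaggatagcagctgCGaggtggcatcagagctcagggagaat
Ermp1, chr19:29700925-29700969: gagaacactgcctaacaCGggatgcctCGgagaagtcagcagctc
Tex12, chr9:50369450-50369494: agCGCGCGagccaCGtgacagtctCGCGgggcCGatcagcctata
Cacna1i, chr15:80202683-80202727: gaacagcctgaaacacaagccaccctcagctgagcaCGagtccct

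The number of CpG differed between these probes. The Trpc7 probe has 1 CpG in 48 bases and the Stab2 probe has 5 in 45, and both regions stood above the 99th percentile on every array. The Tex12 probe has 7 CpG in 45 bases, and the Cacna1i probe has 1 in 45.

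Members lay far above the other regions on every array, but the height they reached differed between arrays. Their median log2 ratio, relative to the array median, was 4.00 in aid-/- ES cells, 3.99 in mbd4-/- ES cells, 1.79 in the Gadd45a knockdown and 2.96 in wild-type ES cells. It was 2.01 in aid-/- liver, 3.75 in mbd4-/- liver, 2.13 in aid-/- spleen and 3.33 in mbd4-/- spleen. The 98th percentile of all regions, called the plateau here, was 4.50, 4.49, 2.91 and 3.52 on those ES arrays, and 2.24, 4.15, 2.30 and 3.70 on those tissue arrays. Arrays with a high plateau had high members, except that the knockdown array had the lowest median of members and not the lowest plateau. Members were chosen by high rank and help to set the plateau. Their agreement with it thus follows in large part from the choice and is no separate measure of an array's scale. Members sat close under the plateau on 7 arrays, with a median rank at percentile 95.9 to 96.4. Their lowest values on these 7 arrays ranked at the 86.5th percentile or above. These ranks also follow in large part from the rule. On the Gadd45a knockdown array the median rank was percentile 95.5, and the lowest member ranked at percentile 0.245.

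**Figure D1:**
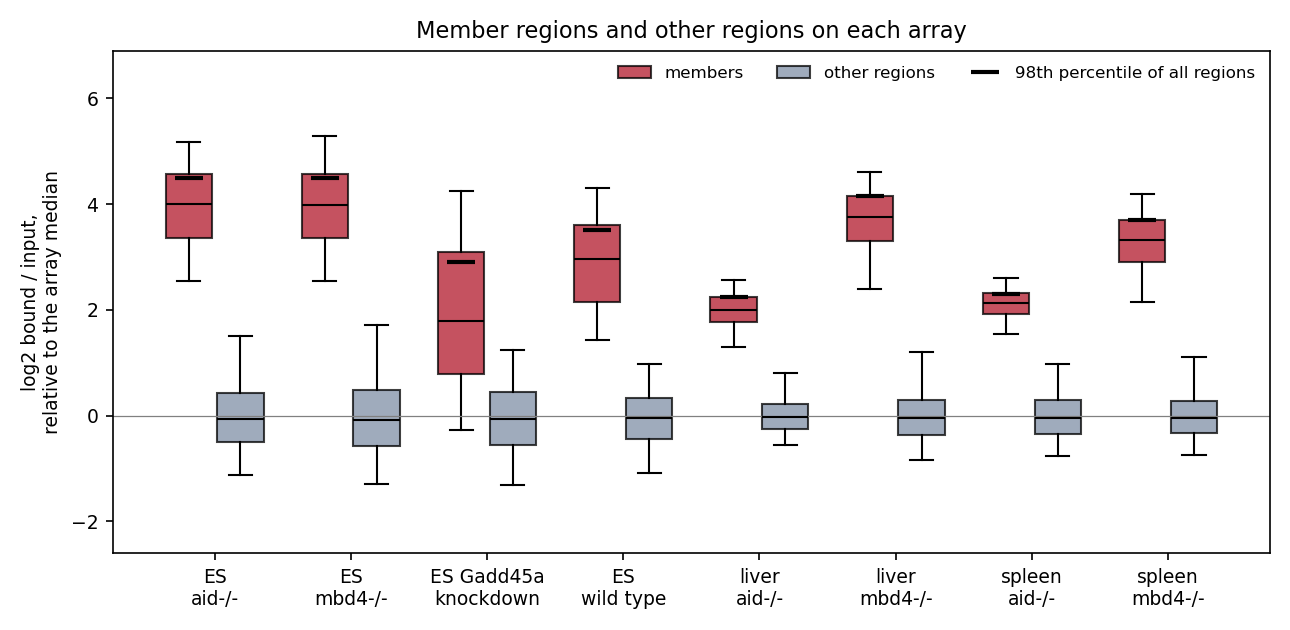
Log2 ratio of bound over input DNA, relative to the array median, of the 922 members and the 12522 other regions on each of the 8 arrays. Boxes span the interquartile range with the median as a line, whiskers reach from the 5th to the 95th percentile, and black ticks mark the 98th percentile of all regions. The medians of members lie between 1.79 and 4.00, and the box of members on the knockdown array spans 0.78 to 3.09.

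Bound signal in members was mostly well above background, which follows in part from their choice by a high ratio of bound over input. The measures in this paragraph are a description and no test of quality. The bound signal was well above background for 95.4% to 99.9% of their 4245 probes, against 65.3% to 92.4% of the probes of all regions. No member lacked such a probe on any array and no probe of a member was saturated. The probes of a member also agreed better than those of a typical region: the median SD over probes was 0.29 to 0.58 log2 in members and 0.44 to 1.34 over all regions. Over all regions, aid-/- liver had the lowest of these spreads and the Gadd45a knockdown the highest.

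The 8 named members that ranked highest on all arrays lay in genes of unlike function. Trpc7, a cation channel of the TRP family, stood at 5.86, 5.37, 4.64 and 4.62 in aid-/-, mbd4-/-, Gadd45a knockdown and wild-type ES cells, and at 2.67, 5.03, 2.69 and 4.81 in aid-/- liver, mbd4-/- liver, aid-/- spleen and mbd4-/- spleen. Its SD over 3 probes was 0.05 to 0.33 log2 on the 8 arrays, and its lowest rank was percentile 99.75. App, which encodes the amyloid precursor protein, stood at 5.12, 5.42, 4.75 and 4.66 on the same ES arrays and at 2.66, 5.05, 2.80 and 4.17 on the tissue arrays. In both genes the aid-/- tissue arrays held the lowest log ratios and near-top ranks, which is the pattern of the plateau. The other 6 were Map3k4 (a stress-kinase kinase), Fat1 (a giant cadherin), Ptpn21 (a tyrosine phosphatase), Stab2 (a scavenger receptor), Kank1 (a cytoskeletal regulator) and Ermp1 (a peptidase of the endoplasmic reticulum), with lowest ranks from percentile 99.30 to 99.67.

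Members were short, CpG-poor for an island and mostly without a probe in a promoter window. They had a median of 4 probes and 406 bp, against 5 probes and 667 bp in the other regions. Median probe GC was 53.7% in members and 55.9% in the other regions, and median CpG density was 3.99 and 5.26 CpG per 100 bases of probe. Only 63 members (6.83%) had a probe inside a RefSeq promoter window (250 bases before to 50 after a gene's start, matched by exact probe sequence), against 7115 of the 12522 other regions (56.8%). Read the other way, 0.878% of the 7178 regions with such a probe were members and 13.7% of the 6266 regions without one. Distance to a gene's start was not measured, so a region without such a probe can still lie near a promoter. In Celsr2 a member at 108217094 to 108217405 on chromosome 3 had no such probe, and the gene's own promoter region began at 108218285. Regions with fewer probes also have fewer chances of a match. Among regions without a promoter window, median CpG density was 3.95 in members and 5.07 in the other regions.

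The share of members was highest among CpG-poor islands without a promoter window. Among regions with no promoter window it was 27.3% in the CpG-poorest decile of all regions (0 to 3.24 CpG per 100 bases), 12.5% in the fifth decile and 3.05% in the richest decile (7.4 to 13.8). Among regions with a promoter window it was 1.19%, 0.834% and 0.663% in the same deciles, and never above 2.10%, each from 3 to 12 members. A promoter window went with a lower share than its absence in all 10 deciles. The CpG-richest members with a gene name were Tex12 (10.1 CpG per 100 bases, a protein of the meiotic synaptonemal complex), Pik3r4 (8.82, a regulator of a lipid kinase) and Begain (8.44, a brain protein). The poorest with a name were Cacna1i (0.53, a T-type calcium channel), Frs2 (0.65, an adaptor of FGF receptors) and Cxcl17 (0.68, a chemokine). The antibody binds methylated CpG, so CpG density and the methylated share cannot be told apart in a single log ratio.

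**Figure D2:**
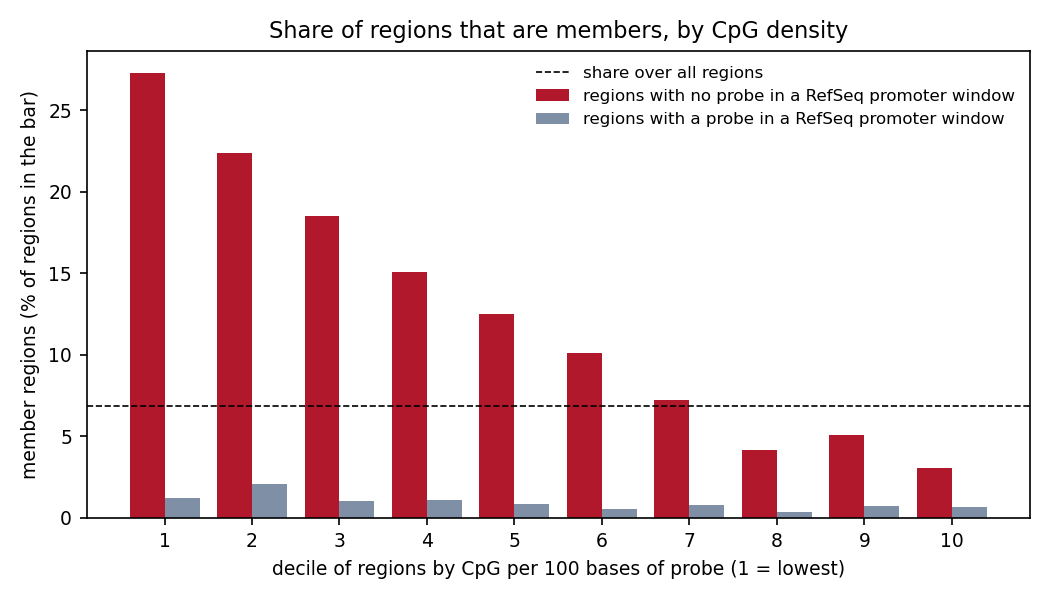
Share of regions that are members, in percent, in each decile of all regions by CpG per 100 bases of probe, for regions without and with a probe in a RefSeq promoter window. The dashed line is the share over all regions, 6.86%; bars without a promoter window run from 27.3% in the poorest decile to 3.05% in the richest, and every bar with one stays at 2.10% or less.

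By chromosome, members made up 3.96% of regions on chromosome 14 to 11.1% on chromosome 15, with chromosome 10 (74 of 690 regions), chromosome 17 (10.1%) and chromosome 8 (9.42%) next. Another member lay within 10 kb of 14.2% of members and within 100 kb of 36.3%. Among all 13444 regions, 28.5% had any other region within 10 kb and 83.4% within 100 kb, but that set is larger, so these shares do not tell whether members cluster. In the last 10 Mb of each chromosome's array coverage lay 14.6% of members and 11.2% of all regions, and in the last 5 Mb 6.18% and 6.36%.

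Of the 922 members, 873 carried a gene name, for 774 genes, and 860 had a name that is a current RefSeq symbol or a single older synonym. The gene with most members was Fat1, an atypical cadherin that suppresses growth: all 8 of its regions on the array were members, and all 8 ranked in the top 10% on all 8 arrays. They spanned chromosome 8 from 46035862 to 46136956 (mm9), and their medians were 4.98, 5.17, 3.83 and 4.05 in aid-/-, mbd4-/-, Gadd45a knockdown and wild-type ES cells. On the tissue arrays the Fat1 medians were 2.53 (aid-/- liver), 4.63 (mbd4-/- liver), 2.51 (aid-/- spleen) and 3.94 (mbd4-/- spleen). None of these 8 regions touched a promoter window.

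Plec, which encodes the cytoskeletal linker plectin, had 5 members among its 8 regions. The 5 lay side by side on chromosome 15 from 76002674 to 76014291, and the largest, with 26 probes over 3488 bp, had more probes than any other member. That region stood at 3.85, 3.67, 1.50 and 2.34 in aid-/-, mbd4-/-, Gadd45a knockdown and wild-type ES cells, and at 2.26, 3.88, 1.87 and 3.52 in aid-/- liver, mbd4-/- liver, aid-/- spleen and mbd4-/- spleen. The Plec region that began at 76028479 held −0.96, −1.03, −0.48 and −0.79 on the ES arrays and −0.01, −0.22, −0.61 and −0.47 on the tissue arrays. Strongly bound islands and islands under the array median thus carried the name of 1 gene. There were 4 members each in Grm4 (a metabotropic glutamate receptor), Zfhx3 (a homeobox and zinc finger factor), Kif26a (a kinesin-like protein) and Ttc28 (a protein of cell division), and 3 each in Apc2, Bsn, Celsr2, Odz2, Ptgfrn, Ptprs and Sall4.

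Member and promoter regions of the same gene were set side by side. For 279 genes the array held a member with no promoter window and a separate region on the gene's own promoter window that was not a member (316 members, 293 promoter regions). The rule on ranks put the first in and left the second out, so the gap between them follows in large part from that choice and is no finding. In wild-type ES cells the members of these genes had a median of 3.12 and their promoter regions 0.01. The pairs of medians were 4.10 and −0.15 in aid-/- ES cells, 4.09 and −0.13 in mbd4-/- ES cells, and 1.82 and 0.03 in the knockdown. In aid-/- liver they were 2.04 and −0.03, in mbd4-/- liver 3.85 and 0.00, in aid-/- spleen 2.13 and −0.10, and in mbd4-/- spleen 3.35 and 0.02. The promoter regions entered the top 10% in 0 to 3 cases on 7 arrays and in 15 cases (5.12%) on the knockdown array. In Ptprs, a receptor phosphatase of neurons, the 3 members (chromosome 17, 56556525 to 56568712) stood at 4.22, 1.64 and 1.38 in wild-type ES cells. Its 2 promoter regions stood at −0.20 (56601127 to 56602039) and 0.20 (56615114 to 56616118) there. In 49 of the 329 genes with a member and an own promoter region, the region on the gene's own promoter was itself a member.

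**Figure D3:**
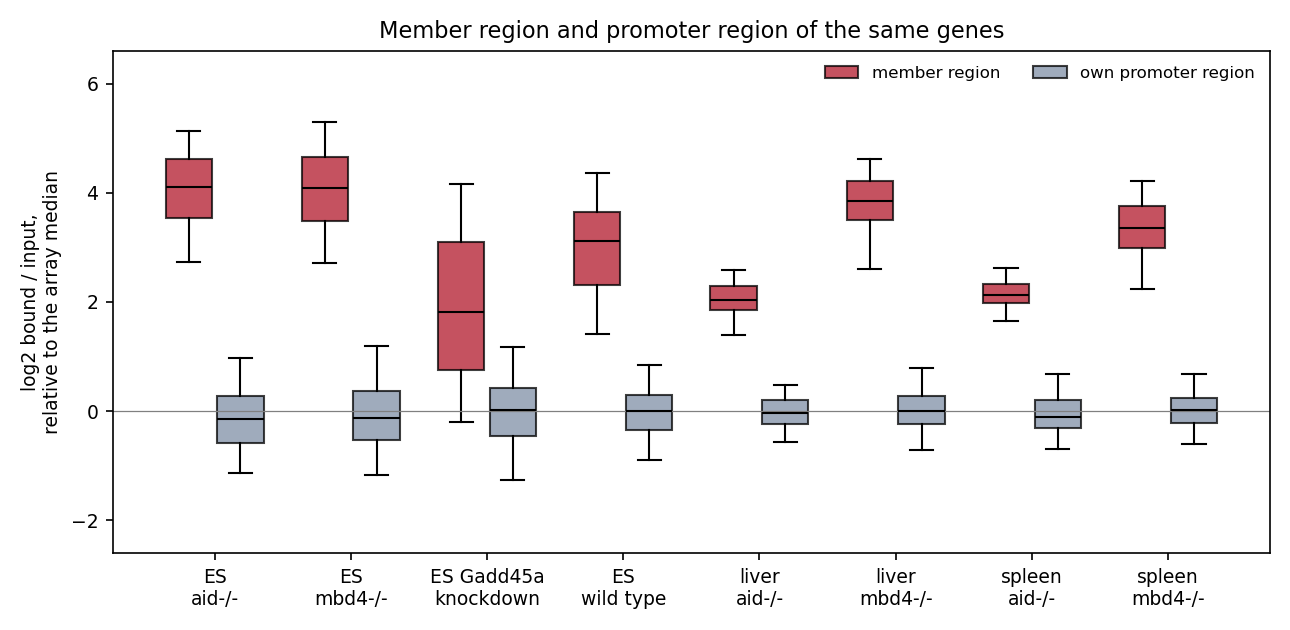
Log2 ratio of bound over input DNA, relative to the array median, of member regions and of the own promoter regions of the same 279 genes on each of the 8 arrays. Boxes span the interquartile range with the median as a line and whiskers reach from the 5th to the 95th percentile; promoter medians lie between −0.15 and 0.03 and member medians between 1.82 and 4.10.

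Germline genes made up a large share of the 63 members with a promoter window. The list of germline genes (meiosis, piRNA pathway and spermatogenesis) had 37 regions, of which 23 (62.2%) were members, where 6.86% of all regions were. Of the 63 promoter members, 18 (28.6%) carried a listed gene, while listed genes made up 0.390% of all 7178 regions with a promoter window. The list and the members were chosen with results of these arrays known, so these shares have no test.

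From the germline list, the promoter members of the meiotic chromosome axis and synaptonemal complex were Sycp1, Sycp2, Sycp3, Syce1, Tex12 and Hormad1. Sycp1, the transverse filament protein that joins paired chromosomes, stood at 4.58, 4.31, 1.95 and 2.89 in aid-/-, mbd4-/-, Gadd45a knockdown and wild-type ES cells. It stood at 2.43 in aid-/- liver, 4.51 in mbd4-/- liver, 2.50 in aid-/- spleen and 4.01 in mbd4-/- spleen, and its lowest rank was percentile 96.1. Sycp2 and Sycp3, of the lateral elements, had their lowest ranks at percentile 97.2 and 93.7. Syce1, of the central element, had its lowest rank, percentile 80.2, on the knockdown array (0.70, against 1.81 in wild type).

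The piRNA pathway, which silences transposons in germ cells, gave Mael, Mov10l1, Piwil1, Tdrd1 and Ddx4 at promoters and Piwil2 without a promoter window. Mov10l1, a helicase that loads piRNA precursors, stood at 5.06, 4.78, 2.52 and 3.61 on the ES arrays of aid-/-, mbd4-/-, Gadd45a knockdown and wild-type cells. It stood at 2.55, 4.25, 2.49 and 3.84 in aid-/- liver, mbd4-/- liver, aid-/- spleen and mbd4-/- spleen. Ddx4, the germ cell helicase also called vasa, ranked at percentile 87.1 on the knockdown array (0.99, against 2.32 in wild type) and at 94.5 or above on the other 7. Dazl, an RNA-binding protein needed to form germ cells, stood at 4.69, 4.83, 3.61 and 3.96 on the ES arrays and at 2.04, 4.04, 1.97 and 3.61 on the tissue arrays, in the same orders.

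Among late germ cell genes, Dpep3, a testis dipeptidase, ranked at percentile 98.8 or above on all 8 arrays. It stood at 4.84, 5.26, 4.69 and 4.83 in aid-/-, mbd4-/-, Gadd45a knockdown and wild-type ES cells, so the knockdown array did not hold it low. Brdt (a testis bromodomain protein), Slc25a31 (the ADP/ATP carrier of sperm), Stk31 and Tuba3a were the other promoter members of this kind. Spata22, a meiotic recombination factor, ranked at percentile 44.5 on the knockdown array (−0.11, against 1.87 in wild type) and in the top 10% on the other 7. Spo11, Adad1, Pdha2, Hspa1l and Piwil2 were members without a promoter window.

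Not all germline promoters were members. Of 26 regions on a listed germline gene's own promoter, 8 were not: Smc1b, Tdrkh, Dmc1, Tdrd5, Mei4, Boll, Rad51c and Ddx25. Boll, of the Dazl family, reached the top 10% on 5 arrays and missed it in wild-type ES cells at 0.77. Ddx25, a testis helicase, stood at −1.04 in wild-type ES cells and between −1.07 and −0.47 on the 4 tissue arrays. Tdrd1 itself had both kinds: its own promoter region was a member (3.87, 3.90, 0.79 and 2.03 on the ES arrays of aid-/-, mbd4-/-, Gadd45a knockdown and wild-type cells), and a second region with its name, on the promoter window of Ccdc186, stood at −0.22, −0.56, −0.88 and −0.17 there.

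**Figure D4:**
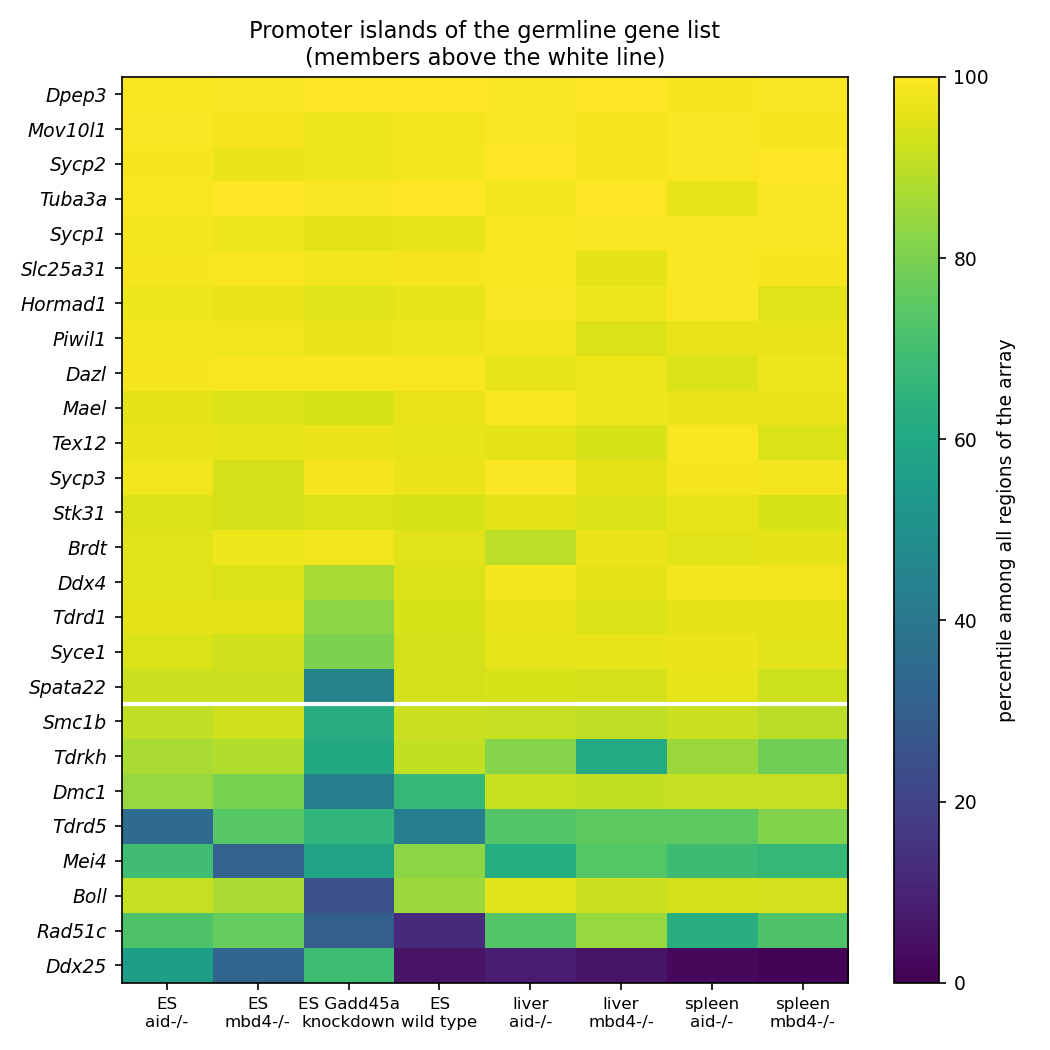
Percentile of each of 26 regions on the own promoter of a listed germline gene among all regions of the array, for the 8 arrays, with the 18 members above the white line and the 8 others under it. Members are near the top on 7 arrays, and on the knockdown array Ddx4, Tdrd1, Syce1 and Spata22 leave the top 10%.

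The sequences here are the 250 bases before the start of 4 of these genes, from RefSeq (build GRCm38.p6). They are shown because their islands were bound on nearly all arrays. Every CpG is in capitals, and each runs 5′ to 3′ on the gene's strand (minus for all 4).
Dazl, chr17:50293621-50293870: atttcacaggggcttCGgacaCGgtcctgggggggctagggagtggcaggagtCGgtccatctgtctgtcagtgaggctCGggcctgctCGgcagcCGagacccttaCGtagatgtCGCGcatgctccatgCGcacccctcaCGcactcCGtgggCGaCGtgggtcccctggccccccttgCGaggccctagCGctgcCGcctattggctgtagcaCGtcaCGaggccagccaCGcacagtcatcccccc
Sycp1, chr3:102936101-102936350: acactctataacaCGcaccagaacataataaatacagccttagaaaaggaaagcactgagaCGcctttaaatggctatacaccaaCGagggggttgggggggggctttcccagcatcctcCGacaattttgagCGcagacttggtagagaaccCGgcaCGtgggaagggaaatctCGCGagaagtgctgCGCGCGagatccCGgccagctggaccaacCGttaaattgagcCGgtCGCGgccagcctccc
Mael, chr1:166238745-166238994: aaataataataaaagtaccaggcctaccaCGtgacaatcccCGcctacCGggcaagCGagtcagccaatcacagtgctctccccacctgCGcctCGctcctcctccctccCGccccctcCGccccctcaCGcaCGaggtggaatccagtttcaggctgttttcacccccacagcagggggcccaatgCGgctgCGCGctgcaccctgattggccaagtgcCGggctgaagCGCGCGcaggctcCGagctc
Ddx4, chr13:112652311-112652560: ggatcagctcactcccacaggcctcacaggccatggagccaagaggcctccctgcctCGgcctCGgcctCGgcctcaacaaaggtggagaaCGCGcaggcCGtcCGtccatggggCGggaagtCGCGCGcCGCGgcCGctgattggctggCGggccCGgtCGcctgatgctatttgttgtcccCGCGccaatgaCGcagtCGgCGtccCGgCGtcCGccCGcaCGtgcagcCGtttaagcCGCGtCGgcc

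These 250 bases hold 20 CpG in Dazl, 17 in Sycp1, 18 in Mael and 31 in Ddx4. Over the whole windows of 300 bases, the median was 23 CpG in the 21 windows of germline promoter members and 24 in the 9318 windows touched by other regions only, which is a similar density. A motif search on both strands used CACGTG, the E-box, and TTCCCGC, a form of the E2F site. Neither motif lies within the other. CACGTG was in 15 of the 21 germline windows (71.4%, 12 of 18 genes), in 1013 of the 9318 windows touched by other regions and in 7.15% of all 32851 RefSeq promoter windows. TTCCCGC was in 8 of the 21 (38.1%), in 10.1% and in 4.60%. Over the 75 windows of all promoter members, germline ones included, CACGTG was in 24 (32.0%) and TTCCCGC in 19 (25.3%). Several genes have more than 1 window, so windows are not independent, and a match is a run of letters and not a bound site.

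For the 45 other members with a promoter window, genes are named here after their values were seen, and no list or count stands behind the choice. Those with a known role in germ cells include D1Pas1 (a testis helicase), Tdrd12 (a piRNA factor), Rnf212 and Rnf212b (meiotic crossover), Rec114 and Ankrd31 (meiotic DNA breaks), Meioc and Topaz1 (meiosis), Syce3 (synaptonemal complex), Spesp1 (sperm) and Btbd18 (piRNA cluster transcription, in a region that also holds a window of Ctnnd1). D1Pas1 stood at 4.61, 4.49, 1.31 and 4.17 in aid-/-, mbd4-/-, Gadd45a knockdown and wild-type ES cells and at 2.62, 4.68, 2.59 and 4.28 in aid-/- liver, mbd4-/- liver, aid-/- spleen and mbd4-/- spleen. Lep, which encodes the fat hormone leptin, stood at 4.47, 4.10, 2.25 and 3.22 on the ES arrays in that order. The promoter of Mest, an imprinted gene whose region carries the name of the microRNA Mir335 in the design, stood at 4.65 and 4.98 in aid-/- and mbd4-/- ES cells, at 0.56 in the knockdown and at 1.38 in wild type. Its values were 1.78 in aid-/- liver, 3.40 in mbd4-/- liver, 1.60 in aid-/- spleen and 2.87 in mbd4-/- spleen.

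In the other lists of gene families and functions the share of members is read beside the 6.86% over all regions. Over all regions it was 0.878% with a promoter window and 13.7% without one, and the lists differ in how many regions have a window. The clustered protocadherins, cell surface proteins of neurons that are expressed in varying choices from 1 cell to the next, had 46.2% (6 of 13 regions). None of these 13 regions had a promoter window. Pcdha2 stood at 3.41, 3.63, 3.20 and 2.41 in aid-/-, mbd4-/-, Gadd45a knockdown and wild-type ES cells and was the only protocadherin member in the top 10% on all 8 arrays. The 2 Pcdhga12 members were at −0.52 and −0.19 on the knockdown array, against 4.26 and 2.70 in wild type. Ion channels had 13.6% (18 of 132), with Kcnv2, Kcnj4 and Hcn2 ranking highest, and plexins and semaphorins 13.9% (5 of 36), led by Plxnb2 and Plxna1.

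Zinc finger genes of the Zfp series gave 32 members of 262 regions (12.2%), collagens and laminins 3 of 28 and chromatin modifiers 7 of 70 (10.0%). Zfp629 stood at 5.81, 5.85, 5.49 and 4.99 in aid-/-, mbd4-/-, Gadd45a knockdown and wild-type ES cells and had the highest wild-type value of any member. Solute carriers had 11 of 225 (4.89%). None of the members in these lists but 1 touched a promoter window, the exception being the germ cell carrier Slc25a31.

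Lists of genes whose promoters are usually open or Polycomb-bound lay under the overall share. Housekeeping families (ribosome, proteasome, replication and translation factors) had 1 member of 151 regions, Rps10, and the histone cluster genes had 0 of 24. Developmental regulators (such as the Hox, Pax, Fox, Tbx, Gata and Wnt families) had 12 of 321 (3.74%), and 6 of the 10 genes with these members encode Wnt ligands. Foxp4, a forkhead factor, ranked highest of them, at 3.50, 3.58, 1.87 and 3.09 in aid-/-, mbd4-/-, Gadd45a knockdown and wild-type ES cells. A promoter window was in 101 of the 151 housekeeping regions, 21 of the 24 histone regions and 86 of the 321 regions of developmental regulators. A window was in 53.4% of all regions. In the whole set 0.878% of regions with a window and 13.7% of regions without one were members. The part of windows in the low shares of these families was not tested.

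Imprinted genes, matched by the name in the design and so without Mest, had 4 members of 43 regions (9.30%), namely Trappc9, Peg13, Dlk1 and Cdh15, each in the top 10% on all 8 arrays. Peg13, a non-coding RNA whose control region is methylated on the maternal copy and which lies inside Trappc9, held 5.02, 6.02, 5.54 and 3.91 in aid-/-, mbd4-/-, Gadd45a knockdown and wild-type ES cells. Peg13 thus stood higher in the knockdown than in wild type. Trappc9 itself, in a second region, held 5.10, 5.13, 2.82 and 4.66.

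Pluripotency genes had 3 members of 18 regions, all in Sall4, a zinc finger factor of ES cells. Its 3 members (chromosome 2, 168575642 to 168581754) stood between 2.61 and 3.78 in wild-type ES cells, and its largest region, of 15 probes (168590471 to 168592693), at 0.10. Among genes that write, read or remove methylation, Tet3 (a dioxygenase of methylcytosine) and Mbd3 (a subunit of the NuRD complex) had 1 member each, of 25 regions. Gadd45a's own region (chromosome 6, 66986497 to 66987387, 7 probes) was no member and stood at −0.51 on the knockdown array, against −0.49 in wild type. The 2 probes of Mbd4 (chromosome 6, 115803273 to 115803411) are too few for a region, and averaged −0.24 in mbd4-/- ES cells and 0.61 in wild type. Neither value tests a deletion or a knockdown, because both report antibody binding.

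Few marker genes had a region. F2, the prothrombin gene of liver, was a member on all 8 arrays, with 4.53, 4.72, 1.55 and 3.61 in aid-/-, mbd4-/-, Gadd45a knockdown and wild-type ES cells and 1.62 and 3.39 in aid-/- and mbd4-/- liver. Cd37, of B cells, had 1 member and 1 other region, Zap70 and Sfpi1 of blood cells were not members, and neither region of Esrrb, of ES cells, was. These are DNA binding values and do not identify the cells.

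The Gadd45a knockdown array was where members most often dropped out. Of the 922 members, 316 were not in the top 10% there, while 2 were not on the aid-/- ES array and none on the mbd4-/- ES array. The regions in the top 10% on the other 7 arrays were also counted for each array in turn. Of these, 316 of 920 (34.3%) were outside the top 10% on the knockdown array, and 0 to 8 of 604 to 612 on any of the other 7 arrays. The counts are not fully alike, because the 604 to 612 regions first had to be in the top 10% on the knockdown array. With a correction for probe GC, 277 of the same 922 members were outside it on the knockdown array, and with normexp background correction 435.

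These 316 members stood at a median of 0.43 on the knockdown array (lowest −2.28, highest 1.16), and 84 of them fell under that array's median. The other 606 stood at 2.70 there. The 316 were also the lower ones on the other ES arrays: 3.50 against 4.34 in aid-/-, 3.34 against 4.37 in mbd4-/- and 2.11 against 3.36 in wild-type ES cells. On the tissue arrays the same sets were level, at 1.95 and 2.04 in aid-/- liver, 3.70 and 3.78 in mbd4-/- liver, 2.08 and 2.15 in aid-/- spleen, and 3.33 and 3.32 in mbd4-/- spleen. A promoter window was as frequent in both sets (6.65% of the 316 and 6.93% of the 606).

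Several technical measures moved with this split, and their part in it was not tested. Median GC was 54.7% in the 316 and 53.2% in the 606, and the share outside the top 10% was 26.0%, 37.0% and 39.9% in members of low, middle and high GC (308, 308 and 306 members). The median SD over probes on the knockdown array was 0.83 in the 316 and 0.48 in the 606, while in wild type it was 0.37 and 0.47. The knockdown array also had the highest correlation of log ratio with probe GC over all regions (r = 0.448, against −0.182 to 0.265 on the other 7). A positive r means higher log ratios at higher GC. This r is over the probes of all regions and not of members alone, and the part of GC in the split was not tested. The knockdown array was scanned on a day of its own, so the knockdown and the array cannot be told apart.

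The lowest members on the knockdown array were Mbd3, Ston2, Fut7 and Sirt4. Mbd3 stood at −2.28 ± 1.61 (SD over 3 probes) there, against 1.51 ± 0.59 in wild type, and at 2.03, 4.31, 2.00 and 4.37 in aid-/- liver, mbd4-/- liver, aid-/- spleen and mbd4-/- spleen. Ston2, an endocytic adaptor, stood at −1.44 ± 1.24 (SD over 7 probes), against 3.88 ± 0.71 in wild type, and was at 4.53 and 4.98 in aid-/- and mbd4-/- ES cells. Relative to wild type, Ston2 fell by 5.32 log2 in the knockdown, the largest such difference among the 922 members. Sirt4, a mitochondrial sirtuin, had a spread of 2.69 over 4 probes on the knockdown array, so its −1.37 there rests on probes that disagree.

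**Figure D5:**
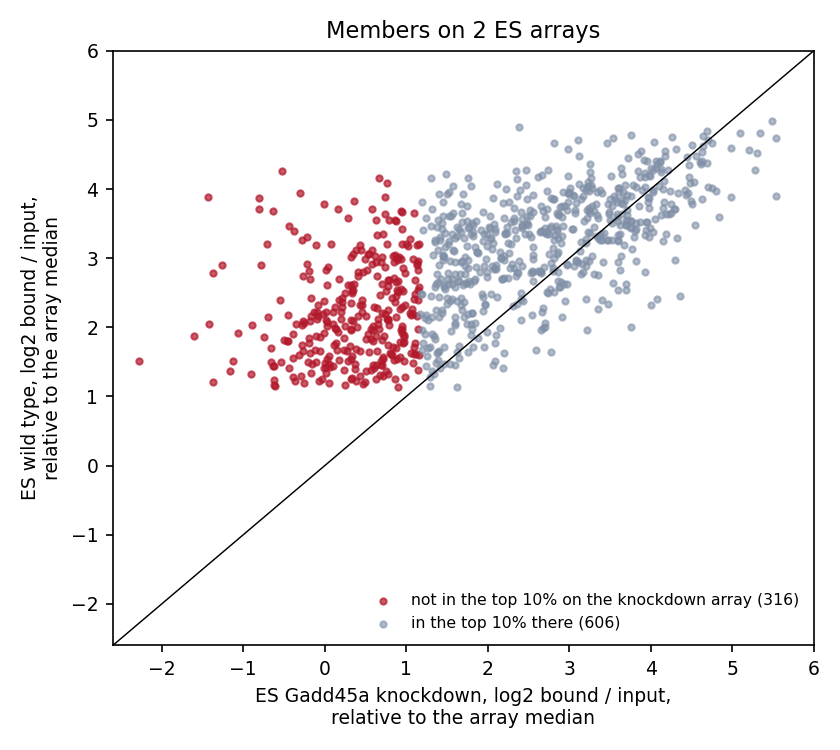
Each point is 1 of the 922 members, with its log2 ratio of bound over input DNA relative to the array median in the Gadd45a knockdown (horizontal) and in wild-type ES cells (vertical), and the line marks equal values. The 316 members outside the top 10% on the knockdown array reach from −2.28 to 1.16 there, with wild-type values from 1.14 to 4.26.

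The members whose level changed most between arrays, as a share of each array's plateau, were Mbd3, Ston2, Napepld, Hyal2, Fam46b and Sirt4, all with their lowest value on the knockdown array. On the aid-/- ES array the lowest members were Atg16l2 (1.24 ± 1.01, SD over 3 probes, against 1.28 in wild type) and Usp35 (1.69, against 1.14), and these were the 2 outside the top 10%. The lowest on the mbd4-/- ES array were Has1 (2.03), Fam176b (2.03), Zfr2 (2.05) and Arid4a (2.11), all just inside the top 10%. Atg16l2 is an autophagy gene, Usp35 a deubiquitinase and Has1 a hyaluronan synthase.

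After Plec, the named members with most probes were Gdf1 (19 probes, a TGF-beta family ligand), Mtap1s and Bcl11b (16 each), Scaf1 (14) and Fut4 (13). Bcl11b, a zinc finger factor of T cells, stood at 3.49, 3.48, 0.82 and 1.61 in aid-/-, mbd4-/-, Gadd45a knockdown and wild-type ES cells and at 2.74, 4.55, 2.43 and 4.12 on the tissue arrays (aid-/- liver, mbd4-/- liver, aid-/- spleen, mbd4-/- spleen). Its 4 tissue values all lay above the plateau of their array, and its 4 ES values all lay under it.

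Near the threshold the rule separates close values. The percentile that decided entry was 90.03 in Usp35 and Speg and 90.05 in Sema6b and Sall3, the 4 members just inside. It was 89.96 in Grin2a, 89.92 in Kcnk15 and Crb2 and 89.91 in 9830001H06Rik, the 4 named regions just outside.

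The order of members was compared between arrays as a description. Over the 922 members Spearman's rank correlation was 0.863 between mbd4-/- and wild-type ES cells, 0.832 between aid-/- and wild-type ES cells and 0.678 between the knockdown and wild type. Between the tissues it ran from 0.642 to 0.798, and between an ES array other than the knockdown and a tissue array from 0.388 to 0.658. It was 0.0708 to 0.228 between the knockdown and the tissue arrays. Over all 13444 regions the order of arrays was another. Wild-type ES cells had 0.810 with mbd4-/- liver, 0.787 with mbd4-/- ES cells and 0.786 with mbd4-/- spleen. They had 0.700 with aid-/- ES cells, 0.699 with aid-/- spleen, 0.631 with the knockdown and 0.626 with aid-/- liver. These are descriptions over regions of the same arrays, which share probe design and GC.

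Each ES mutant was set against the same wild-type ES array by a fold rule, since there is 1 array a group: a difference of at least 1 log2, with at least 75% of a region's probes on that side. In aid-/- 501 of 922 members were higher and 1 lower, where 8.79% of all regions were higher and 2.21% lower. In mbd4-/- 517 were higher and 0 lower, where the background was 9.13% and 2.46%. In the knockdown 19 were higher and 426 lower, where it was 4.42% and 8.24%. Members lie near the plateau, and the plateaus differ between arrays. With the arrays scaled to 1 plateau, 63 members were higher and 8 lower in aid-/- (3.74% and 1.08% of all regions), and 46 higher and 2 lower in mbd4-/- (2.96% and 1.12%). In the knockdown 100 were then higher and 326 lower (6.80% and 9.03% of all regions). The counts of higher members in aid-/- and mbd4-/- thus differed with the scaling. Members help to set the plateau, so scaling to it narrows their differences by construction. The cause of the differences was not tested.

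For ES cells against liver and spleen, limma was fitted over all 13444 regions and 8 arrays, with arrays of other genotypes in place of replicates. None of the 922 members passed an adjusted p of 0.05, where 7 regions (0.0521%) passed over the whole array, and 201 members had an unadjusted p under 0.05. The rule chose members by high rank in both ES cells and tissues on these same arrays, which selects against differences in rank between them. Counts of members called in this and the other limma comparisons are thus a description and no test of the members. The median difference of members was 0.48 (ES minus tissue), with 646 above 0. It turned to −0.23 with the arrays at 1 plateau, where limma called 37 members (4.01%, 7 higher and 30 lower in ES cells) and 2.91% of all regions. After quantile normalization it called 41 members (4.45%, 30 higher and 11 lower) and 2.95% of all regions, so both member shares lay near the background. On the 4 arrays scanned on day 1 (aid-/- and wild-type ES cells, aid-/- liver and aid-/- spleen), limma called 244 members, all higher in ES cells, where 2.64% of all regions were called. The 2 tissue arrays of that day have the lowest plateaus, and the direction of the members' difference depended on the scale.

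For aid-/- against mbd4-/-, over ES cells, liver and spleen with tissue as a block, limma called none of the 922 members and 0.0% of all regions, with 582 members at an unadjusted p under 0.05. The median difference was −0.94 (aid-/- minus mbd4-/-), with 2 of 922 members above 0. By tissue the members' medians were 4.00 in aid-/- and 3.99 in mbd4-/- ES cells, 2.01 and 3.75 in liver, and 2.13 and 3.33 in spleen. As shares of the plateau those medians were 0.889 and 0.888, 0.896 and 0.905, and 0.924 and 0.898, in aid-/- and mbd4-/- ES cells, liver and spleen. Without either ES array, the fit of the tissue arrays alone, with 1 residual degree of freedom, called 844 members lower in aid-/-, where 10.3% of all regions were called. All 3 aid-/- arrays were scanned on day 1 and no mbd4-/- array was, so genotype and scan day cannot be told apart.

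For liver against spleen, limma called none of the 922 members and 0.0% of all regions, and no member had an unadjusted p under 0.05. This fit had no term for genotype, so the gap between aid-/- and mbd4-/- arrays adds to its error. Both aid-/- tissue arrays were scanned on day 1 and both mbd4-/- tissue arrays on day 2. With scan day as a block, which pairs liver and spleen by genotype, limma called 0 members, and 10 had an unadjusted p under 0.05. The median difference was 0.18 (liver minus spleen). It was −0.70 without mbd4-/- liver and −0.43 without aid-/- spleen. Each of these fits sets 1 genotype of a tissue against both genotypes of the other, so the gap between aid-/- and mbd4-/- arrays enters the difference. Within a genotype the members' medians were 2.01 in liver and 2.13 in spleen of aid-/- mice, and 3.75 and 3.33 in mbd4-/- mice. At 1 plateau the median difference of liver minus spleen was −0.01.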

How the data were processed

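Each of the 8 samples was hybridised to 1 Agilent 2-colour mouse CpG island array (build mm9, per the file headers). The deposited intensity values are processed signals, background-subtracted and dye-normalized by Agilent Feature Extraction 10.7.3.1 (ES mbd4-/- and Gadd45a knockdown) or 10.9.1.1 (the other 6 arrays), per the file headers. The deposited log10 ratio is Cy5 over Cy3, and was taken as bound over input from the dyes in the labels. The deposited value table is a score with mean 0 and SD near 1 on each array, of unstated scale and log base, and served as an alternative.

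Log2 ratios of the processed signals of 83154 probes were averaged over regions and centred on the array's median over autosomal regions. Of 88737 probes, 326 had no position. limma 3.58.1 (R 4.3.3) was fitted over all 13444 regions with Benjamini-Hochberg adjustment and tested on simulated data. Since each group is 1 array, arrays of other genotypes or tissues stood in for replicates, and the number of arrays limits the precision. The calls by fold had no test. Promoters were assigned by exact probe match in RefSeq windows (GRCm38.p6). Members and gene lists were chosen with earlier results of these data known. Genes were named by rank (highest lowest rank, largest range, lowest on an ES array), probe number, CpG density, nearness to the threshold, and gene list.

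Alternatives were arrays at 1 plateau, quantile normalization, a filter on flagged or dim probes, normexp with offset 50 on the median signals, a lowess correction for probe GC (span 0.3), the deposited values, other region rules, batch blocks and leaving out each array.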

Additional observations from a re-analysis of the deposited data

Results flagged for a closer look

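The members' median aid-/- minus mbd4-/- difference was unlike between tissues. It was 0.0291 in ES cells, −1.72 in liver and −1.19 in spleen, with 480 members higher in aid-/- ES cells, 1 in aid-/- liver and 9 in aid-/- spleen. The difference between the tissues was not tested, since each tissue has 1 array of each genotype. As a share of the plateau the medians of the differences were 0.0063, 0.0039 and 0.0267, and the part of the array scale in the unscaled values was not tested.

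The X chromosome was left out of the members. Of its 385 regions, 25 (6.49%) passed the thresholds of the autosomal regions on the arrays that the rule requires.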

How the results depend on the processing

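The number of members was 300 with the top 5%, 1409 with the top 20%, 604 with all 8 arrays required, 587 with the deposited values, 450 with at least 5 probes, and 604 to 999 without 1 array each. For ES cells against tissues, limma called 37 members at 1 plateau (2.91% of all regions), 35 with the deposited values (4.26% of members and 4.08% of all regions), 41 after quantile normalization (2.95%), 244 on scan day 1 alone (2.64%) and 0 to 1 without 1 array each. The median difference, 0.48, was −0.23 at 1 plateau and −0.44 with the deposited values. For aid-/- against mbd4-/-, limma called 69 members with the deposited values (0.883% of all regions), 1 after quantile normalization (0.108% of members and 1.17% of all regions), 844 with the Feature Extraction version as a block (10.3%) and 0 to 844 without 1 array each. The median difference, −0.94, was 0.0402 at 1 plateau and 0.0350 after quantile normalization. Liver against spleen had 0 members called under the 18 alternatives that could be fitted, with 0.225% of all regions called with the deposited values. Its median difference, 0.18, was −0.00511 at 1 plateau and −0.70 to 1.07 without 1 array each, with −0.70 without mbd4-/- liver and −0.43 without aid-/- spleen.

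In the fold counts the share of all regions stands in brackets. In aid-/- against wild-type ES cells, members higher were 63 at 1 plateau (3.74%), 144 with normexp (1.74%) and 67 with the deposited values (3.09%). Lower were 8 at 1 plateau (1.08%), 2 with normexp (0.0298%), 3 with the GC correction (1.46%) and 101 with the deposited values (2.80%). In mbd4-/- higher were 46 at 1 plateau (2.96%), 86 with normexp (1.36%) and 53 with the deposited values (4.33%), and lower were 2 at 1 plateau (1.12%) and 19 with the deposited values (1.74%). In the knockdown higher were 100 at 1 plateau (6.80%), 10 with the probe filter (4.21%), 3 with normexp (0.565%), 36 with the GC correction (4.10%) and 5 with the deposited values (4.65%). The count of lower members there was 326 to 603 under these 5 alternatives (5.54% to 10.6%). The cause of these shifts was not tested. The fold alternatives, the random blocks and scan day 1 alone were chosen after seeing the data. Scan day and slide could not be fitted as blocks for aid-/- against mbd4-/-. Replicate numbers pair nothing, because each group holds a single array. Liver and spleen share a scan day within each genotype, and the main fit of liver against spleen did not use this pairing. Tissue was a block for aid-/- against mbd4-/- as reported.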
